A study of Mus musculus with 14 samples.

Results

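The 9 genes followed here were Nkx2-1 and its partner regulators of lung transcription: Hopx, Foxa1, Foxa2, Gata6, Cebpa, Foxp1, Foxp2 and Nfib. They were matched by gene name in each table. All 9 had a row among the 23793 loci of the table for alveolar type 1 (AT1) cells and whole lung. Of the 32609 loci in the separate table for alveolar type 2 (AT2) cells, 7 matched; Foxa1 and Gata6 had no row under these names there and were not analysed in AT2 cells.

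The study set mouse lungs mutant for Nkx2-1 against control lungs by RNA sequencing in 14 libraries, to find differences in gene expression. AT1 cells, purified by flow sorting at postnatal day 5, gave 3 mutant and 3 control libraries from a cross labelled Nkx2-1;Aqp5. AT2 cells from a cross labelled Nkx2-1;Sftpc gave 3 mutant and 3 control libraries, with libraries A and B of each group at postnatal day 8 and library C at day 9. Whole lobes at postnatal day 14 from the Nkx2-1;Aqp5 cross gave 1 mutant and 1 control library. Aqp5 is a gene of AT1 cells and Sftpc a gene of AT2 cells. The allele, the deleted part of Nkx2-1, the alleles that control animals carried and the way AT2 cells were isolated are not stated in the labels used here. Nothing says that libraries came from separate animals, so p-values measure only the spread between libraries, which may be technical.

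NKX2-1 is a homeodomain factor present in the lung epithelium from its first specification, and it binds and activates surfactant and other alveolar genes. FOXA1 and FOXA2 are forkhead factors that open chromatin and act together in airway and alveolar differentiation, and GATA6 binds NKX2-1 and takes part in the maturation of the distal epithelium. C/EBP alpha acts in AT2 cell maturation and lipid metabolism. FOXP1 and FOXP2 are forkhead repressors of the lung epithelium, NFIB acts in distal lung maturation, and HOPX, a homeodomain protein that does not bind DNA itself, marks AT1 cells.

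Levels are in FPKM as the authors deposited them: fragments mapped to a gene, divided by the transcript's length and by the number of fragments in the library. The read depth behind them is unknown. Summed FPKM was 458291 to 614523 in the AT1 libraries and 536862 to 983397 in the AT2 libraries, where mitochondrial transcripts took 8.85 to 12.8% in mutants and 14.0 to 33.7% in controls. The labels were checked against 10 markers of each cell type. Summed AT1 markers reached 9352 to 10600 FPKM in AT1 controls and 2698 to 3932 FPKM in AT2 controls, with 9 of the 10 found in the AT2 table. Summed AT2 markers reached 8872 to 19400 FPKM in AT1 controls and 87140 to 115900 FPKM in AT2 controls. The sorted AT1 libraries thus also held AT2 transcripts, and the AT2 libraries held transcripts of AT1 markers. In sorted or bulk libraries, fewer cells of a type and less RNA per cell cannot be told apart.

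The stretches of DNA just before the transcription starts of Nkx2-1, Hopx and Cebpa are shown because these genes had the 3 deepest decreases of the 9 factors. Each run is the 250 bases before a RefSeq start in GRCm38.p6, the assembly of mm10, written 5′ to 3′ on the strand of the gene, and 6 of the 9 genes had an entry in that promoter table. Capitals mark matches, on either strand, to 7 short motifs: CTCAAG and CAAGTG for NKX2 proteins, TGTTTAC and TGTTTG for forkhead proteins, AGATAA for GATA proteins, TTGCNNAA for C/EBP proteins and TTGGCA for one side of the NFI palindrome. Nkx2-1 is on chromosome 12, with the gene at 56531958 to 56536908 on the minus strand, and this run is chr12:56536909-56537158. Hopx is on chromosome 5 at 77086988 to 77115121 on the minus strand, and its run is chr5:77115124-77115373. Cebpa is on chromosome 7 at 35119293 to 35121928 on the plus strand, and its run is chr7:35119043-35119292.
Nkx2-1: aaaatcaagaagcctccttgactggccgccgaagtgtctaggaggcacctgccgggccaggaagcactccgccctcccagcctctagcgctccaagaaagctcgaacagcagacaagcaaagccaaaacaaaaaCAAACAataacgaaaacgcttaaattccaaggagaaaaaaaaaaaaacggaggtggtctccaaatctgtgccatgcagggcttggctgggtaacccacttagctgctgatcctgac
Hopx: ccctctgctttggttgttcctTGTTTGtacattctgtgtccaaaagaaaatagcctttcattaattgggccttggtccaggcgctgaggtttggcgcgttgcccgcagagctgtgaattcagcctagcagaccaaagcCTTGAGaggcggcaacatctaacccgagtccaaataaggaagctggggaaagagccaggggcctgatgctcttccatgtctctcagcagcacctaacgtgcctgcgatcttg
Cebpa: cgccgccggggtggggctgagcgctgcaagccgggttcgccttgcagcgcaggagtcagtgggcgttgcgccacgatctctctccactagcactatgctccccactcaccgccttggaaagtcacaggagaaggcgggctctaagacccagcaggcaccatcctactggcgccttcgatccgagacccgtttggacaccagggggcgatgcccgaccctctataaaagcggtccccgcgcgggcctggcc

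Of the other factors, Foxa1 lies on chromosome 12 at 57540628 to 57546916 (minus strand), Foxa2 on chromosome 2 at 148042877 to 148046969 (minus) and Gata6 on chromosome 18 at 11052064 to 11085635 (plus). Foxp1 and Foxp2 are both on chromosome 6, at 98925338 to 99522721 (minus) and 14901349 to 15441977 (plus), and Nfib is on chromosome 4 at 82290173 to 82705750 (minus). Gene positions are those of GENCODE M21 on the same assembly.

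The run of Hopx held CTTGAG, the reverse complement of CTCAAG, at 112 to 107 bases before the start, and TGTTTG at 229 to 224 bases before it. The run of Nkx2-1 held CAAACA, the reverse complement of TGTTTG, at 116 to 111 bases before the start, and none of the 7 motifs was found in the run of Cebpa. Among the 32851 promoters of the table, cut to the same length, CTCAAG was found in 13.3%, CAAGTG in 11.6%, TGTTTAC in 3.17%, TGTTTG in 16.0%, AGATAA in 9.99%, TTGCNNAA in 9.56% and TTGGCA in 12.3%. A match of this kind is a description of the letters and shows no binding.

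Nkx2-1 itself fell in the mutants of both cell types, with message left in every library. Its level was 22.8, 55.8 and 68.2 FPKM in AT1 mutants A, B and C, against 262, 281 and 239.8 FPKM in AT1 controls A, B and C. Mutant libraries averaged 48.9 ± 23.4 FPKM and controls 261 ± 20.7 FPKM (SD, n = 3 each), so mutants kept 18.7% of the control level. The difference was -2.53 ± 0.36 on the log2(FPKM + 1) scale (± SE; adjusted p = 0.00639, limma with Benjamini-Hochberg adjustment over all genes tested, as for every adjusted p here). AT1 mutant A was the lowest of the 3, at 8.74% of the control mean, and no mutant library came near a control library.

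In AT2 cells the same gene had 74.4, 59.0 and 73.4 FPKM in mutants A, B and C, against 247, 289 and 353 FPKM in controls A, B and C. The mutant mean was 68.9 ± 8.64 FPKM and the control mean 296 ± 53.7 FPKM, a difference of -2.08 ± 0.16 (adjusted p = 7.31e-05), which left 23.3% of the control level. Whether the decrease differed between the cell types was tested directly. The AT1 and AT2 libraries also differ in cross, postnatal day and normalization. No test between cell types here can tell these apart from cell type. The AT2 difference minus the AT1 difference was 0.45 ± 0.44 (95% interval -0.52 to 1.41, adjusted p = 0.554), and it was -0.02 without AT1 mutant A. A part of the gene outside a deletion would still give fragments, and since the deleted part is not given here, the remaining FPKM cannot be read as intact message.

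In whole lung, Nkx2-1 had 52.1 FPKM in the mutant library and 101 FPKM in the control library, 51.5% of control. With 1 library per group the lung values have no replicate check and no p-value. Airway cells also make Nkx2-1. Among airway markers, the club cell secretory gene Scgb1a1 had 19852 FPKM in the mutant lung and 20542 FPKM in the control lung, Scgb3a1 had 432 FPKM in the mutant lung and 34.9 FPKM in the control lung, and Cyp2f2 had 176 FPKM in the mutant lung and 425 FPKM in the control lung. AT1 markers summed to 708 FPKM in the mutant lung and 3065 FPKM in the control lung. The part of such cells in the lung value was not tested.

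**Figure D1:**
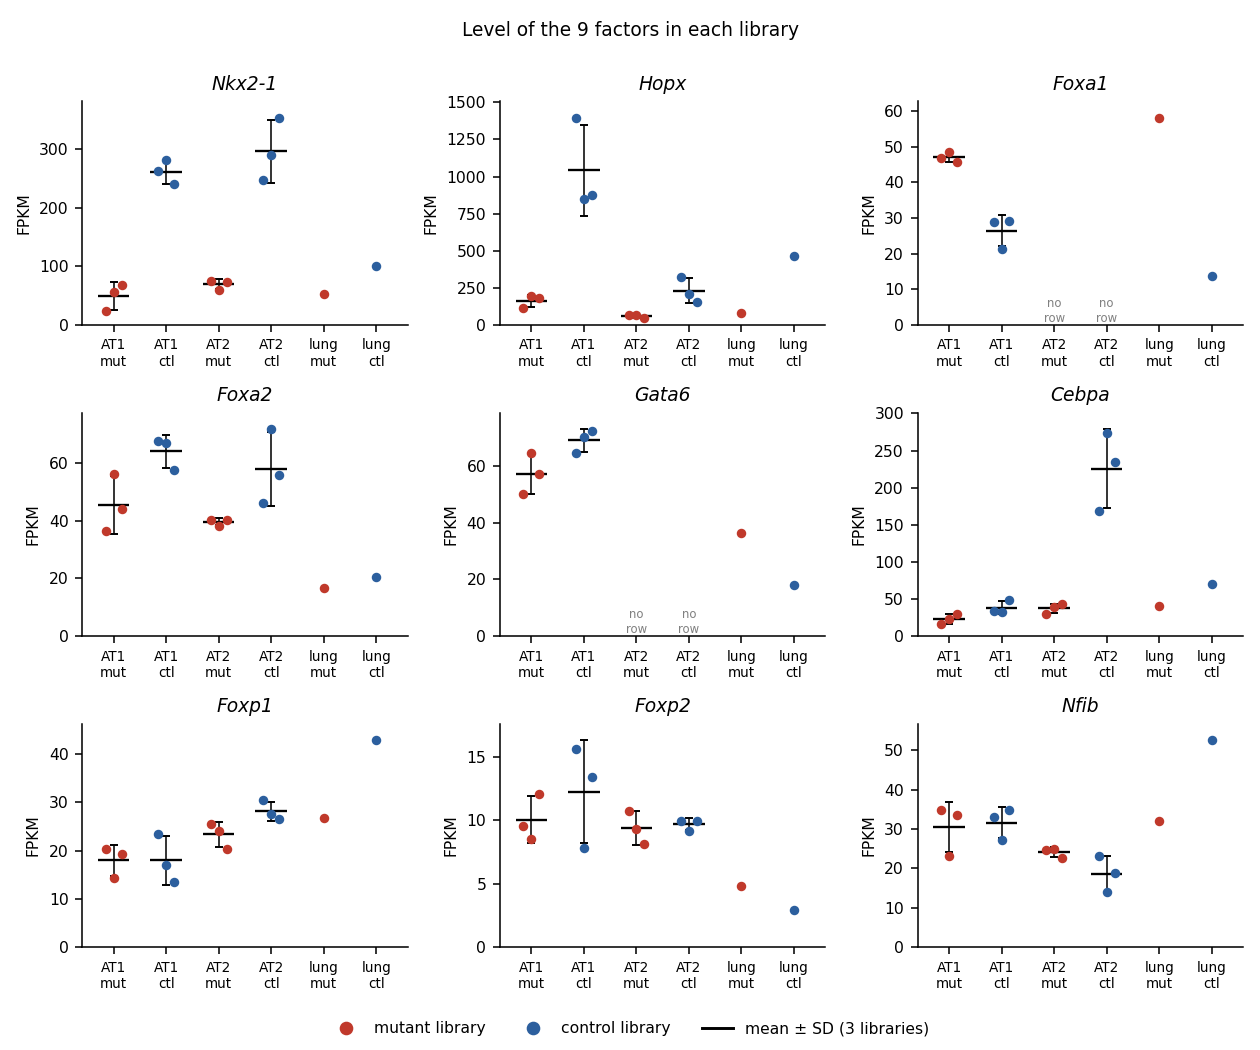
FPKM of each of the 9 factors (vertical axes, linear from 0) in every library of the 6 groups (horizontal axes), with mutant libraries in red and control libraries in blue; bars give the mean ± SD of 3 libraries, and "no row" marks Foxa1 and Gata6 in AT2 cells. Nkx2-1 and Hopx are low in all mutant libraries of both cell types, Foxa1 is high in AT1 mutants, and Cebpa is highest in AT2 controls.

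Hopx was among the most abundant messages of control AT1 cells, and it fell in the mutants of both cell types. It had 114, 191 and 178 FPKM in AT1 mutants, against 1396, 849 and 877 FPKM in AT1 controls. In rank from the top it stood between 367 and 691 in AT1 mutants, against 22 and 64 in AT1 controls. The difference was -2.68 ± 0.27 (adjusted p = 0.00252), and mutants held 15.5% of control.

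AT2 controls carried less Hopx than AT1 controls, with 322, 210.2 and 156 FPKM, and AT2 mutants had 66.7, 69.2 and 45.0 FPKM. The difference was -1.87 ± 0.28 (adjusted p = 0.00121), leaving 26.3%. The 2 cell types' differences were not separated by their test (0.81 ± 0.42, 95% interval -0.12 to 1.73, adjusted p = 0.251), although with all libraries set to equal summed FPKM that value was 1.52 (adjusted p = 0.0153). In whole lung Hopx was 80.6 FPKM in the mutant library and 463 FPKM in the control library, a 5.74-fold lower level. Of 9 AT1 markers tested in AT2 cells, 4 were lower in mutants and 5 did not pass, where 22.3% of all genes were lower. Summed AT1 markers were 799 to 1060 FPKM in AT2 mutants and 2698 to 3932 FPKM in AT2 controls. Their part in the AT2 Hopx values was not tested.

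Foxa1 was the one factor of the 9 that rose in AT1 mutants. Its levels were 46.9, 48.5 and 45.7 FPKM in mutants A to C and 28.7, 21.3 and 29.1 FPKM in controls A to C. The mutant libraries sat close together, at 47.0 ± 1.39 FPKM, and above every control library, at 26.4 ± 4.41 FPKM. The 1.78-fold rise, 0.82 ± 0.15 on the log2 scale, passed the test (adjusted p = 0.0141), but not without AT1 mutant A (0.82, adjusted p = 0.0604) and not with summed FPKM set equal (0.69, adjusted p = 0.0666). In whole lung, Foxa1 was 58.1 FPKM in the mutant library and 13.8 FPKM in the control library, 4.22-fold higher.

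Foxa2 was lower in AT2 mutants, and its AT1 values lay the same way without passing the test. In AT1 cells it had 36.3, 56.3 and 44.1 FPKM in mutants and 67.9, 67.0 and 57.6 FPKM in controls. No mutant library reached the lowest control, yet the difference of -0.50 ± 0.18 missed the threshold (95% interval -0.92 to -0.09, adjusted p = 0.09). In AT2 cells it had 40.4, 38.3 and 40.3 FPKM in mutants and 46.1, 71.8 and 56.0 FPKM in controls.

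The AT2 difference in Foxa2, -0.51 ± 0.15, passed the test (adjusted p = 0.0245) and was close to that in AT1 cells, with a difference between cell types of -0.01 (95% interval -0.55 to 0.53, adjusted p = 0.983). The AT2 call held in 8 of 15 alternative settings. It did not hold with any 1 AT2 mutant library left out (adjusted p = 0.0586, 0.0725 and 0.061 without A, B and C), and with equal summed FPKM the value was 0.06, the opposite sign. Whole lung held 16.6 FPKM in the mutant library and 20.4 FPKM in the control library.

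Within the FOXA family, the shares of its genes in AT1 libraries were set beside the family total. The summed FPKM of Foxa1, Foxa2 and Foxa3 was 91.3 to 109 in mutants and 86.8 to 96.9 in controls, ranges that overlap. Foxa1 made up 44.3 to 51.3% of that sum in mutants and 24.1 to 33.6% in controls. Foxa2 made up 39.8 to 51.5% in mutants and 66.3 to 75.8% in controls. Neither gene's shares overlapped between the groups. These shares are taken within a library and do not depend on how libraries are scaled; they were not tested.

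Foxa3, the third member of the family and best known from liver and gut, made up the rest. It had 8.11, 4.61 and 2.84 FPKM in AT1 mutants and 0.298, 0.0917 and 0.0904 FPKM in AT1 controls (2.33 ± 0.31, adjusted p = 0.00508). In AT2 cells it had 5.44, 7.91 and 6.26 FPKM in mutants and 0.278, 0.456 and 0.409 FPKM in controls (2.44 ± 0.15, adjusted p = 3.17e-05). The test between the cell types gave 0.11 ± 0.36 (adjusted p = 0.881). It entered the test through its mutant libraries, since no control library reached 1 FPKM.

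In whole lung the family total itself was larger, at 95.7 FPKM in the mutant library and 34.2 FPKM in the control library. Foxa1 took 60.7% of it in the mutant lung and 40.2% in the control lung. Foxa2 took 17.4% in the mutant lung and 59.7% in the control lung, and Foxa3 took 21.9% in the mutant lung and 0.0592% in the control lung. All 6 general epithelial markers were past 2-fold higher in the mutant lung, where 11.9% of all genes were. In AT1 mutants 5 of the 6 were higher, where 11.6% of all genes were, and Krt7 did not pass (0.08, adjusted p = 0.81). Summed, these markers had 7275 FPKM in the mutant lung and 531 FPKM in the control lung. In AT1 libraries they summed to 4509 to 7165 FPKM in mutants and 1454 to 2479 FPKM in controls. Their part in the Foxa1 and Foxa3 values was not tested.

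**Figure D2:**
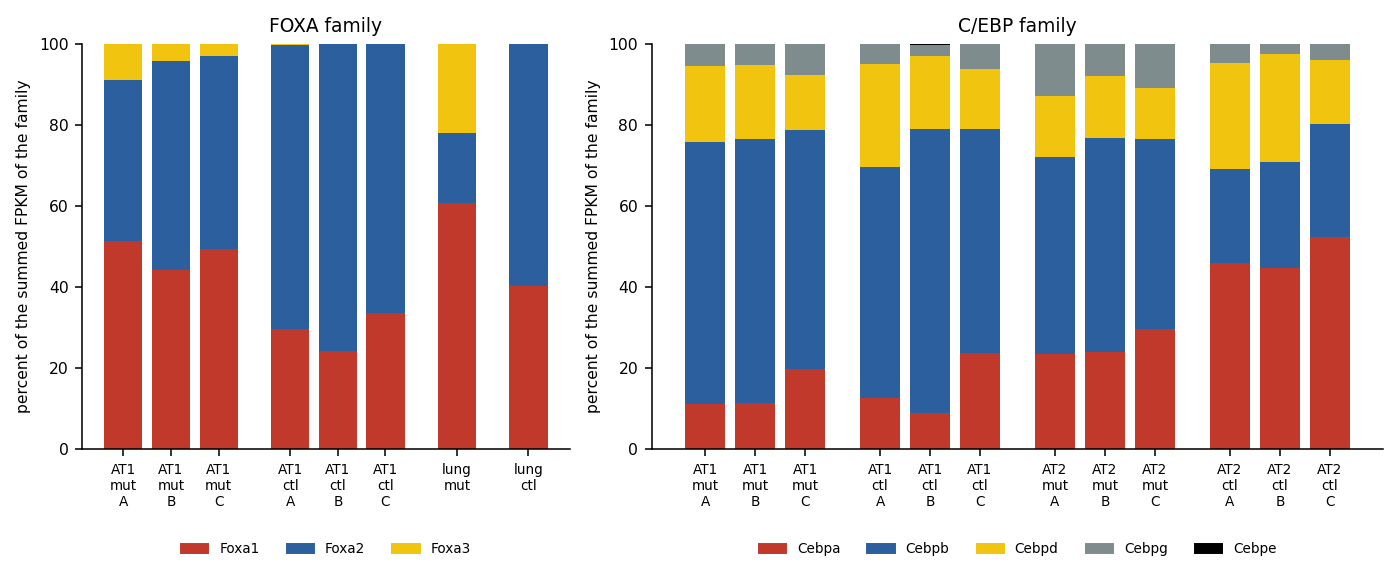
Each bar is 1 library, mutants left of controls, and its segments give the percent of the family's summed FPKM (vertical axis, 0 to 100) held by each gene; the left plot shows the FOXA family in AT1 cells and whole lung, the right plot the C/EBP family in AT1 and AT2 cells. Foxa1 takes 44.3 to 51.3% in AT1 mutants and 24.1 to 33.6% in AT1 controls, and Cebpa takes 23.4 to 29.6% in AT2 mutants and 44.7 to 52.4% in AT2 controls.

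Cebpa had the deepest decrease of the 7 factors measured in AT2 cells. It had 30.3, 39.1 and 42.9 FPKM in AT2 mutants, against 168, 274 and 235 FPKM in AT2 controls. The means were 37.4 ± 6.47 FPKM and 226 ± 53.5 FPKM, a 6.03-fold lower level in mutants (-2.55 ± 0.20, adjusted p = 8.43e-05). The highest mutant library lay far below the lowest control.

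AT1 cells had less of it in both groups, with 16.7, 22.7 and 29.6 FPKM in mutants and 33.4, 32.8 and 49.1 FPKM in controls. The groups did not overlap, but the difference of -0.73 ± 0.24 missed the threshold (adjusted p = 0.0712). With the library letter as a block, the same difference passed (-0.73 ± 0.13, adjusted p = 0.021). No label pairs the libraries, and the pairing by letter was read from correlations in these same data. The test of the difference between the cell types also passed: the AT2 change was 1.82 ± 0.34 log2 units deeper than the AT1 change (-1.82, adjusted p = 0.00903). Setting all libraries to equal summed FPKM left -1.11 (adjusted p = 0.0541).

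A pair of Cebpa relatives was lower in AT2 mutants as well. Cebpd, induced by glucocorticoids and inflammation, averaged 20.8 ± 3.65 FPKM in mutants and 110 ± 47.0 FPKM in controls (-2.27 ± 0.28, adjusted p = 0.000524). Cebpb averaged 72.6 ± 12.3 FPKM in mutants and 123 ± 37.8 FPKM in controls (-0.72 ± 0.23, adjusted p = 0.0337). Settings that lost this call included equal summed FPKM (-0.14, adjusted p = 0.599) and leaving out AT2 control B or C, or mutant A or C. The family sum was 130 to 164 FPKM in AT2 mutants and 365 to 612 FPKM in AT2 controls. Within it, Cebpa held 23.4 to 29.6% in mutants and 44.7 to 52.4% in controls, and Cebpb held 47.0 to 52.9% in mutants and 23.2 to 27.7% in controls.

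In AT1 cells the Cebpa share was 11.2 to 19.8% in mutants and 8.79 to 23.7% in controls, overlapping ranges. All 7 leukocyte markers tested were lower in AT2 mutants too, where 22.3% of all genes were. Without the filter on low values 3 of the 7 were, where 2851 of 23608 genes were. They summed to 14.6 to 34.8 FPKM in mutants and 53.3 to 171 FPKM in controls. All 10 endothelial markers and 5 of 6 mesenchymal markers were also lower in AT2 mutants, and 1 mesenchymal marker was higher. The part of such cells in the Cebpb and Cebpd values was not tested. In whole lung Cebpa was 41.2 FPKM in the mutant library and 69.8 FPKM in the control library, while Cebpd was 176 FPKM in the mutant library and 77.4 FPKM in the control library.

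Gata6 did not pass the test in AT1 cells. It had 50.0, 64.5 and 57.2 FPKM in mutants and 64.5, 70.2 and 72.2 FPKM in controls. The highest mutant lay just under the lowest control, with a difference of -0.27 ± 0.14 (95% interval -0.60 to 0.06, adjusted p = 0.213). In whole lung it was 36.3 FPKM in the mutant library and 17.9 FPKM in the control library, 2.03-fold higher as a plain ratio and 0.98 on the log2(FPKM + 1) scale.

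Gata2, a GATA factor of endothelial and blood cells, was the relative of Gata6 that fell in AT1 mutants, to 5.54 ± 0.527 FPKM, against 11.3 ± 3.85 FPKM in controls (-0.87 ± 0.23, adjusted p = 0.0386). That call was lost in 6 of 14 alternative settings, among them leaving out any 1 AT1 mutant. Gata2 was 20.9 FPKM in the mutant lung and 71.9 FPKM in the control lung. Endothelial markers moved with it, with a summed level of 221 to 259 FPKM in AT1 mutants against 307 to 676 FPKM in AT1 controls, and 755 FPKM in the mutant lung against 2083 FPKM in the control lung. Their part in the Gata2 values was not tested.

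For Foxp1, Foxp2 and Nfib, no difference passed the test in either cell type with the deposited scaling and no block. Foxp1 had 20.4, 14.4 and 19.2 FPKM in AT1 mutants and 23.4, 17.0 and 13.6 FPKM in AT1 controls, a difference of 0.02 (95% interval -0.49 to 0.53, adjusted p = 0.963). In AT2 cells it had 25.5, 24.1 and 20.4 FPKM in mutants and 30.4, 27.5 and 26.6 FPKM in controls, with no overlap (-0.26 ± 0.11, adjusted p = 0.0684). That AT2 difference passed with median ratio scaling (-0.39, adjusted p = 0.0165) and with the letter block (-0.26, adjusted p = 0.0458), and its sign turned with equal summed FPKM, to 0.30.

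Foxp2 was the least abundant of the 9, with 9.52, 8.50 and 12.1 FPKM in AT1 mutants and 15.6, 7.79 and 13.4 FPKM in AT1 controls (-0.23, 95% interval -0.81 to 0.36, adjusted p = 0.552). It had 10.7, 9.33 and 8.10 FPKM in AT2 mutants and 9.98, 9.17 and 9.96 FPKM in AT2 controls (-0.05, 95% interval -0.31 to 0.21, adjusted p = 0.725). Mutant and control libraries overlapped in both cell types. A relative, Foxp4, was higher in AT1 mutants, at 67.8 ± 3.83 FPKM against 41.7 ± 6.45 FPKM in controls (0.70 ± 0.15, adjusted p = 0.0208), a call lost with equal summed FPKM (0.56, adjusted p = 0.0975) and without any 1 AT1 mutant. Foxp4 made up 68.2 to 73.8% of the summed Foxp1, Foxp2 and Foxp4 level in AT1 mutants and 48.7 to 64.5% in AT1 controls.

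Nfib had 34.8, 23.2 and 33.7 FPKM in AT1 mutants and 32.9, 27.2 and 34.8 FPKM in AT1 controls (-0.06, 95% interval -0.50 to 0.37, adjusted p = 0.833). In AT2 cells it had 24.8, 24.9 and 22.7 FPKM in mutants and 23.1, 13.9 and 18.8 FPKM in controls. The AT2 difference of 0.38 ± 0.17 missed the threshold (adjusted p = 0.0877), and it passed without AT2 control A (0.54, adjusted p = 0.0195) and with equal summed FPKM (0.94, adjusted p = 0.00169). Nfib held 26.8 to 33.9% of the NFI family sum in AT1 mutants and 29.0 to 34.3% in AT1 controls, and 19.8 to 21.7% in AT2 mutants and 16.5 to 21.9% in AT2 controls.

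In whole lung these 3 factors differed by less than 2-fold. Foxp1 was 26.7 FPKM in the mutant library and 42.8 FPKM in the control library, and Nfib was 32.0 FPKM in the mutant library and 52.5 FPKM in the control library. Foxp2 was 4.82 FPKM in the mutant library and 2.91 FPKM in the control library.

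**Figure D3:**
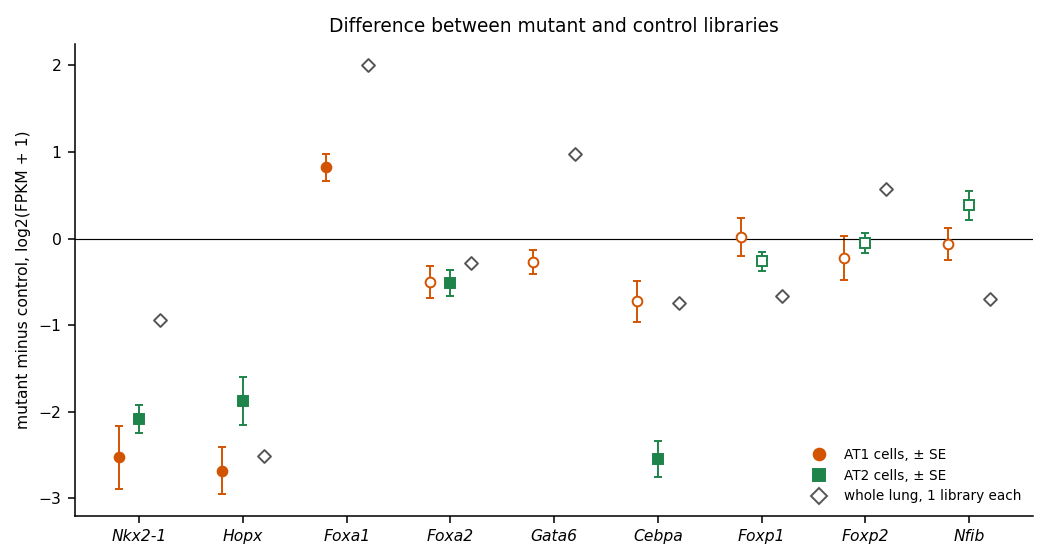
Mutant minus control difference on the log2(FPKM + 1) scale (vertical axis) for each factor, with SE bars from 3 libraries per group in AT1 cells (circles) and AT2 cells (squares), filled where the adjusted p is under 0.05, and open diamonds for whole lung with 1 library per group. Nkx2-1 and Hopx lie near -2 to -3 in both cell types, Cebpa is at -2.55 in AT2 cells and -0.73 in AT1 cells, and Foxp1, Foxp2 and Nfib lie near 0 in AT1 cells.

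Counted over the list, 3 of 9 factors passed the test in AT1 cells, 1 higher and 2 lower. Nkx2-1, the mutated gene, is 1 of the 2 lower. It also enters the medians, the AT2 count of lower factors and the counts without overlap below. These counts are thus in part set by the design. Of all 12612 genes tested there, 17.8% passed, 11.6% higher and 6.22% lower. The median difference was -0.27 for the 9 factors and 0.00065 for all genes. The count of 2247 genes called in AT1 cells rested on single libraries: leaving out mutant A gave 473, mutant B 1066, mutant C 1119 and control C 1345.

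In AT2 cells 4 of 7 passed, all lower, where 54.7% of the 11610 genes tested passed, 32.4% higher and 22.3% lower. Their median difference was -0.51, against 0.09 for all genes. In the test between cell types 1 of 7 passed, Cebpa, where 8.29% of 10336 genes did, 4.02% higher and 4.28% lower. That count of 857 genes was 407 to 541 without AT2 control A or B or any 1 AT2 mutant, while Cebpa passed without each of the 12 libraries.

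Mutant and control libraries did not overlap for 6 of 9 factors in AT1 cells, 1 higher and 5 lower, where this held for 40% of all genes tested, 23.6% higher and 16.5% lower. In AT2 cells they did not overlap for 5 of 7, all lower, where this held for 64.5% of genes, 38.2% higher and 26.3% lower. In whole lung 2 of 9 factors lay past 2-fold on the log2(FPKM + 1) scale, Hopx lower and Foxa1 higher, where 23.3% of 13717 genes did, 11.9% higher and 11.4% lower.

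Levels across cell types come from separately normalized tables and are set side by side as a description. By group means, Nkx2-1 ran from AT2 controls (296 FPKM) and AT1 controls (261 FPKM), whose libraries overlapped, through control lung (101 FPKM) to AT2 mutants (68.9 FPKM), mutant lung (52.1 FPKM) and AT1 mutants (48.9 FPKM), the last 2 overlapping. Hopx was highest in AT1 controls (1041 FPKM), then control lung (463 FPKM), AT2 controls (229 FPKM) and AT1 mutants (161 FPKM), and lowest in mutant lung (80.6 FPKM) and AT2 mutants (60.3 FPKM). In that order only AT2 controls and AT1 mutants overlapped.

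Cebpa was highest in AT2 controls (226 FPKM) and next in control lung (69.8 FPKM). AT1 controls (38.5 FPKM) overlapped with mutant lung (41.2 FPKM) above them and with AT2 mutants (37.4 FPKM) below them. AT1 mutants (23.0 FPKM) were lowest and did not overlap with AT2 mutants. Foxa2 overlapped between all neighbours from AT1 controls (64.2 FPKM) to AT2 mutants (39.7 FPKM) and was lower in both lung libraries.

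Beyond the 9, 21 family relatives were listed. Of them, 10 passed the filter on low values in AT1 cells. Of these, 2 were higher (Foxa3 and Foxp4) and 1 lower (Gata2), where 11.6% and 6.22% of all genes were, with a median of -0.22. With the letter block 3 were lower, as Cebpb (-0.67, adjusted p = 0.0388) and Cebpd (-0.89, adjusted p = 0.0199) also passed. In AT2 cells 9 passed the filter, with 2 higher and 3 lower, where 32.4% and 22.3% of all genes were, and a median of -0.03. The higher ones were Foxa3 and Nfic, an NFI factor with 35.2 ± 2.19 FPKM in mutants and 26.6 ± 1.54 FPKM in controls (0.39 ± 0.09, adjusted p = 0.00701). The NKX2 relatives Nkx2-2, Nkx2-3, Nkx2-4 and Nkx2-6 were listed at 0 in all AT1 libraries of both groups, and no NKX2 relative passed the filter in either cell type.

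A list of 30 other lung transcription factors was chosen for known roles in the alveolar or airway epithelium. In AT1 cells it gave 7 higher and 3 lower of 28 tested, with a median of 0.03. Of all genes, 11.6% were higher and 6.22% lower. With the letter block 9 of the 28 were higher and 5 lower, against 1907 and 1359 of 12612 genes. Ehf and Elf3, ETS factors of epithelia, rose most in AT1 mutants. Ehf had 21.7, 8.25 and 11.4 FPKM in mutants and 1.74, 0.908 and 1.89 FPKM in controls (2.48 ± 0.33, adjusted p = 0.00559). Elf3 had 169, 60.9 and 63.1 FPKM in mutants and 21.6, 14.6 and 14.5 FPKM in controls (2.32 ± 0.38, adjusted p = 0.0102).

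AT1 mutant A, the library with the least Nkx2-1, held the most Ehf, Elf3 and Foxa3. It also had the largest summed FPKM of the AT1 libraries, 614523. Among AT1 controls, A likewise held the most Elf3 and Foxa3, though not the most Ehf, with Nkx2-1 at 262 FPKM. A relation between these levels and Nkx2-1 was not tested. Rarb, a retinoic acid receptor, averaged 6.96 ± 0.202 FPKM in AT1 mutants and 2.51 ± 0.428 FPKM in AT1 controls (1.19 ± 0.16, adjusted p = 0.00566). The 3 lower factors, named after their values were seen, were Tead1 (-1.04 ± 0.30, adjusted p = 0.0497), Tead4 (-0.74 ± 0.20, adjusted p = 0.0374) and Smad3 (-0.49 ± 0.13, adjusted p = 0.0388). The TEAD family are DNA-binding partners of YAP and TAZ. Of its other members in AT1 cells, Tead2 was higher, at 27.5 FPKM in mutants and 13.5 FPKM in controls (1.03 ± 0.23, adjusted p = 0.0242), and Tead3 did not pass the test (-0.13, adjusted p = 0.557). The AT1 calls held in 6 of 14 alternative settings for Tead1, 7 for Tead4, 6 for Smad3 and 10 for Tead2.

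In AT2 cells the same list gave 11 higher and 3 lower of 23 tested, where 32.4% and 22.3% of all genes were, with a median of 0.68. The 3 lower ones were Etv5, Elf5 and Id2. Etv5, an ETS factor downstream of FGF signalling that keeps AT2 cell identity, averaged 22.7 ± 1.39 FPKM in mutants and 276 ± 26.1 FPKM in controls (-3.55 ± 0.10, adjusted p = 2.81e-06). Elf5, an ETS factor of distal lung epithelium, averaged 9.35 ± 1.87 FPKM in mutants, and its controls had 73.1, 87.6 and 63.8 FPKM (-2.88 ± 0.16, adjusted p = 2.33e-05).

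Tead2 and the proliferation factor Foxm1 led the higher ones. Tead2 had 40.6, 36.4 and 39.7 FPKM in AT2 mutants and 10.2, 9.12 and 9.31 FPKM in AT2 controls (1.92 ± 0.09, adjusted p = 1.14e-05). Foxm1 averaged 25.6 ± 3.84 FPKM in AT2 mutants and 6.27 ± 2.29 FPKM in AT2 controls (1.91 ± 0.22, adjusted p = 0.000346). All 7 cell-cycle markers tested rose with it, where 32.4% of all genes were higher. They summed to 369 to 457 FPKM in AT2 mutants and 66.0 to 122 FPKM in AT2 controls. In AT1 mutants all 8 tested were higher, where 11.6% of all genes were, and 6 were with equal summed FPKM. In whole lung 7 of 8 were past 2-fold higher, where 11.9% of all genes were.

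Between the cell types, 2 of 25 tested had the higher difference in AT2 cells and 3 the lower, where 4.02% and 4.28% of all genes did. With the letter block the counts were 4 and 5, against 673 and 672 of 10336 genes. Id2, an inhibitor of basic helix-loop-helix factors, rose in AT1 mutants, to 177 ± 23.0 FPKM against 74.7 ± 19.6 FPKM in controls (1.26 ± 0.21, adjusted p = 0.0103). In AT2 cells it fell, with 173 ± 28.9 FPKM in mutants and 403 ± 141 FPKM in controls (-1.18 ± 0.25, adjusted p = 0.00572). The test of the difference gave -2.44 ± 0.35 (adjusted p = 0.00259).

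Tead4 also went opposite ways, lower in AT1 mutants and higher in AT2 mutants (difference 1.46 ± 0.25, adjusted p = 0.00576). Etv5 (-2.75 ± 0.66, adjusted p = 0.0267) and Elf5 (-1.91 ± 0.52, adjusted p = 0.0447) had the lower difference in AT2 cells, calls that held in 14 and 7 of 20 alternative settings. The remaining one was Wwtr1, which encodes TAZ (0.85 ± 0.20, adjusted p = 0.0227).

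**Figure D4:**
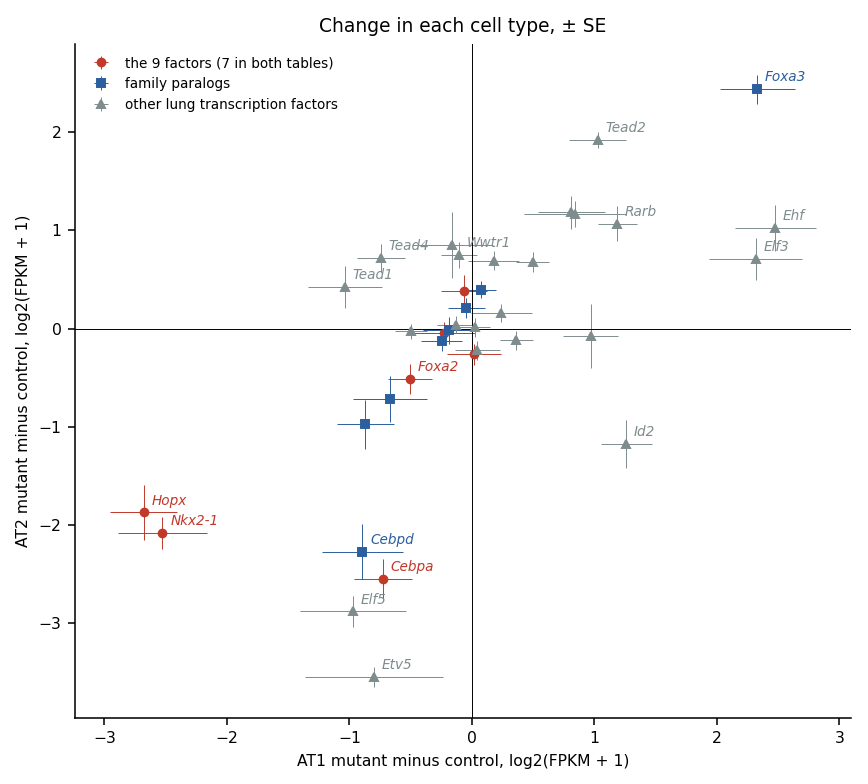
Mutant minus control difference on the log2(FPKM + 1) scale in AT1 cells (horizontal axis) and AT2 cells (vertical axis) for the 7 factors found in both tables (circles), their family relatives (squares) and other lung transcription factors (triangles), with SE bars. Nkx2-1 and Hopx lie low on both axes, Foxa3 high on both, Cebpa, Etv5 and Elf5 low mainly in AT2 cells, and Id2 is high in AT1 cells and low in AT2 cells.

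Genes long described as bound and activated by NKX2-1 were listed as a readout. In AT1 mutants 2 of 10 fell, where 6.22% of all genes did. With the letter block 7 of 10 were lower past the threshold, where 1359 of 12612 genes were. The 2 that fell without the block were Ager, the AT1 surface receptor, and Cldn18, a tight-junction protein (-1.67 ± 0.20, adjusted p = 0.00421). Ager had 547, 1484 and 1156 FPKM in mutants and 6353, 5612 and 5425 FPKM in controls (-2.56 ± 0.37, adjusted p = 0.00697). All 8 measured in AT2 cells fell, where 22.3% of all genes did, with a median of -3.33. Without the filter on low values 6 of the 8 passed as lower, where 2851 of 23608 genes did.

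Sftpc, the surfactant protein C gene, averaged 2059 ± 704 FPKM in AT2 mutants and 77610 ± 13200 FPKM in AT2 controls (-5.28 ± 0.56, adjusted p = 0.000257), a call lost without the filter on low values (adjusted p = 0.167). Sftpa1 (-5.20 ± 0.28, adjusted p = 2.16e-05) and Sftpb (-4.84 ± 0.34, adjusted p = 4.8e-05) fell as well. Of the 8 found in both tables, 5 fell further in AT2 than in AT1 cells, where 4.28% of all genes had the lower difference. These were Sftpa1, Sftpb, Sftpc, Abca3 and Napsa, all also listed as AT2 markers. Without the filter on low values the count was 3 of 8, where 393 of 15456 genes had the lower difference. AT1 libraries also held AT2 transcripts, whose part in the AT1 values was not tested. Ager, Cldn18 and Sftpd did not pass that test (Sftpd -1.78, adjusted p = 0.0822). In AT1 cells Sftpd averaged 310 FPKM in mutants and 214 FPKM in controls (0.64, adjusted p = 0.387).

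In whole lung, 8 of 28 other lung transcription factors were past 2-fold higher and 5 lower, where 11.9% and 11.4% of all genes were. Elf3 was 367 FPKM in the mutant library and 8.14 FPKM in the control library. Klf5, a zinc-finger factor of epithelia, was 192 FPKM in the mutant library and 23.4 FPKM in the control library, and Sox9, a factor of the embryonic distal lung tip, was 8.65 FPKM in the mutant library and 0.627 FPKM in the control library. Of the lower ones, Sox11 had the largest change, -2.32 on the log2(FPKM + 1) scale. It was 0.288 FPKM in the mutant library and 5.42 FPKM in the control library. Etv5, also lower in AT2 mutants, was 9.16 FPKM in the mutant library and 40.5 FPKM in the control library (-2.03).

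Noncoding genes beside the 9 factors were read where a table held them. On the strand opposite Nkx2-1 lies Gm26973, which was lower in AT2 mutants (-0.43 ± 0.15, adjusted p = 0.0413). Opposite Nfib lies Gm11266, which passed the filter there through its control libraries alone, with 0.339 to 0.936 FPKM in mutants and 1.53 to 2.69 FPKM in controls, and 1010001N08Rik, opposite Gata6, did not differ past the threshold in AT1 cells (0.12, adjusted p = 0.815). Whether fragments were counted by strand is not given here, so overlapping pairs are uncertain.

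The genes most like Nkx2-1 and Hopx were sought over the 12 cell-type libraries, as the smallest root mean square difference of log2(FPKM + 1) after subtracting the control mean of the same table, among 6364 genes. For Nkx2-1 they were Tmem37 (0.398), Dennd3 (0.408), Scnn1g (0.415), Esam (0.421) and Scnn1b (0.426). Hopx itself was 8th, at 0.466, Cebpa 179th and Foxa2 747th. For Hopx they were Dennd3 (0.266), Col4a3 (0.313), Scnn1g (0.353), Tmem37 (0.379) and Scnn1b (0.383), with Nkx2-1 6th. Scnn1b and Scnn1g encode subunits of the epithelial sodium channel, and Col4a3 a basement membrane collagen. All these libraries enter both the likeness and the mutant contrast, so the order is a description.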

How the data were processed

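RNA was measured in 14 mouse libraries, grouped by the sample titles. Per the labels' protocols, poly(A) RNA was sequenced in paired ends. The submitters' processing notes name mm10 and the tools TopHat2 2.0.14, Bowtie2 2.2.3, Cufflinks 2.2.1, Cuffdiff (AT1 cells, lung) and Cuffnorm (AT2 cells), but neither an annotation nor the use of strand. The values deposited by the authors are FPKM, normalized separately in the 2 tables; read depth is unknown. Spreadsheet conversion had turned 26 and 23 gene names into dates.

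Values were taken as log2(FPKM + 1), a scale that understates the change of low genes. Genes with at least 3 libraries at 1 FPKM were tested with limma 3.58.1 in R 4.3.3 (two-sided, mean-dependent prior variance, Benjamini-Hochberg over all genes, threshold 0.05), which was tested on simulated data. The difference between cell types was an interaction term over 12 libraries and genes named in both tables. Letters A to C paired the AT1 libraries by their values (same-letter correlations of deviations from group means 0.237, 0.357 and 0.477), not by a label; blocked values are given beside the factors whose call they change and the list counts they move by over 1.5 times.

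The 9 genes and all lists were chosen with earlier results of these data known. All 9 were named, with the 5 genes most like Nkx2-1 and Hopx. Up to 4 called genes were named per list and comparison, those of largest change at 5 FPKM or more. In whole lung Etv5 was named beyond these. Positions came from GENCODE M21 and promoters from RefSeq. Alternatives were other pseudocounts, filters, scalings and prior variances, the letter block, and leaving out each library.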

Additional observations from a re-analysis of the deposited data

Results flagged for a closer look

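Cebpa changed differently in the 2 cell types, which cannot be told apart here from cross, postnatal day and normalization. Its AT2 difference (mutant minus control) exceeded its AT1 difference by -1.82 ± 0.34 on the log2(FPKM + 1) scale (limma interaction, adjusted p = 0.00903), and it was lower in every mutant library of both cell types than in any control library of the same type. The interaction passed in 19 of 20 alternative settings. In the remaining one, equal summed FPKM, it was -1.11 (adjusted p = 0.0541), where the median over all genes shifted by 0.60. AT2 markers were lower in AT2 mutants for 9 of 9 genes, where 22.3% of all genes were. In AT1 mutants 1 of 10 was lower, where 6.22% of all genes were. With the letter block 6 of 10 were lower there, where 1359 of 12612 genes were. The part of AT2 cells in the Cebpa value was not tested.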

How the results depend on the processing

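In all alternatives run, Nkx2-1 and Hopx stayed lower and past the threshold in both cell types, as did Cebpa in AT2 cells. With equal summed FPKM the median over all genes moved by -0.12 in AT1 cells, 0.51 in AT2 cells and 0.60 in the difference between cell types. Calls over all genes were then 1342 in AT1 cells (main 2247) and 3701 between cell types (main 857), where 2 of the 7 factors passed, Hopx and Nfib. The AT2 split of 3767 higher and 2589 lower became 6410 and 927, and 2977 and 3269 under median ratio scaling; AT1 calls became 686 higher and 656 lower, against 1462 and 785. In AT1 cells Foxp1 turned to -0.113, with median ratio scaling to -0.0152. In AT2 cells Foxa2 turned to 0.0599, Foxp1 to 0.3 and Foxp2 to 0.477 with equal summed FPKM, and between cell types Foxa2 turned to 0.697 and Foxp1 to 0.412. The cause was not tested.

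Chosen after seeing the data, equal summed FPKM without mitochondrial and small RNA loci gave 2626 calls between cell types. Foxp1 was then -0.0688 in AT1 cells and 0.0188 in AT2 cells, Foxp2 0.215 in AT2 cells, and Foxa2 0.365 and Foxp1 0.0875 between cell types. In whole lung 5 of 9 factors lay past 2-fold (main 2), with the lung median moved by -0.30. With P8 libraries alone, Foxp2 was 0.0595 in AT2 cells.

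Leaving out each library gave 473 to 1990 calls in AT1 cells and 407 to 1038 between cell types. Small differences changed sign: Foxp1 (-0.158 to 0.215) and Nfib (-0.166 to 0.118) in AT1 cells, Foxp2 in AT2 cells (-0.141 to 0.0418), and Foxa2 (-0.161 to 0.152), Foxp2 (-0.00873 to 0.45) and Nkx2-1 (-0.0196 to 0.75) between cell types. Where 2 libraries of a group remained, the fit pooled the spread over all libraries.

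The replicate block, the letter, raised AT1 calls to 3266 and calls between cell types to 1345, adding Cebpa in AT1 cells and Foxp1 in AT2 cells (adjusted p = 0.0458) and losing none of the 9 factors. In AT2 cells the letters did not pair libraries, since same-letter correlations were 0.112, -0.117 and 0.127.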
